A study of Mus musculus with 36 samples.

Results

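The 40 genes described here act in G2 and mitosis. They were chosen by name for these roles and matched by symbol to a table of 29883 genes, in which all 40 were found. The table comes from RNA-seq of cultured mouse cells, in 12 groups of 3 libraries each. The co-cultured macrophages were derived from bone marrow and kept with the tumour line PDG-Ink4a Recurrent, and they were taken at 0 h, 6 h or 24 h after myelin debris was added. The mono-cultured macrophages were kept without tumour cells and were taken at the same times. The co-cultured and the mono-cultured tumour cells of the same line form the other 6 groups. That line comes from a recurrent glioma of a mouse model in which platelet-derived growth factor B is expressed in Nestin-positive progenitors on an Ink4a/Arf-null background, so every tumour cell group, the 0 h groups included, carries the same deletion and driver. All tumour cell libraries come from this 1 line. The 0 h groups are labelled as controls, and the sources used here do not say how long these cultures were kept, so myelin cannot be told apart from time in culture. The labels do not tie the 3 libraries of a group to different cultures or mice, and p-values then reflect library-to-library spread that may be technical.

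A dividing cell copies its DNA in S phase, prepares for division in G2 and separates its chromosomes in mitosis. Entry into mitosis is driven by CDK1 bound to cyclin B. The spindle checkpoint then holds the chromosomes back until all are attached, and the anaphase-promoting complex with CDC20 ends mitosis by marking securin and cyclin B for destruction. Most genes of this programme are kept off in resting cells by the DREAM complex and are switched on late in the cycle by B-MYB, FOXM1 and MuvB, through a promoter element called the CHR (cell cycle genes homology region) and through CCAAT boxes bound by NF-Y. Cultured macrophages from bone marrow divide while they are supplied with growth factor, and the mRNAs of these genes are used as markers of cycling cells in macrophages and in glioma alike.

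Stretches of 6 promoters are shown because they carry, or lack, those elements. They are taken from RefSeq promoters on GRCm38.p6, the build that mm10 denotes. Each runs from 119 bases before to 20 bases after a RefSeq start of the gene, 5′ to 3′ on the gene's strand. Capitals mark matches on either strand to the CHR letters TTTGAA and their variant TTCGAA and to the box CCAAT. The stretches are those of Ccnb2 (chr9:70421535-70421673, minus strand), Ube2c (chr2:164769810-164769948, plus strand), Cdc20 (chr4:118437324-118437462, minus strand), Cenpf (chr1:189688067-189688205, minus strand), Bub3 (chr7:131560251-131560389, plus strand) and Pttg1 (chr11:43425962-43426100, minus strand).
Ccnb2: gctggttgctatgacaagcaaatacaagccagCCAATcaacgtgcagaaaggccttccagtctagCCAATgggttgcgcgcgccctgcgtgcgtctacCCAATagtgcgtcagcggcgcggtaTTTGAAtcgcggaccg
Ube2c: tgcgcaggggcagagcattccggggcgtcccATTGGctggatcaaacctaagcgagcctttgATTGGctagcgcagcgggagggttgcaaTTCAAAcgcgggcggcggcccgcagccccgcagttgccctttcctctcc
Cdc20: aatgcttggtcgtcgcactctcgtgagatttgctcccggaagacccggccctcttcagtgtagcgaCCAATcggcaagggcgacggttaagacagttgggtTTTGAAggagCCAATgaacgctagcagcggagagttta
Cenpf: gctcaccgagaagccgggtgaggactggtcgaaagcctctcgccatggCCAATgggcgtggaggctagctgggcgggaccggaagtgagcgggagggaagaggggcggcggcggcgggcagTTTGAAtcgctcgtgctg
Bub3: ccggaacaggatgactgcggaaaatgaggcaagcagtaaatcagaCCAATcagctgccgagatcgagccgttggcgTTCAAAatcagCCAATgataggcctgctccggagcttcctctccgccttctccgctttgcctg
Pttg1: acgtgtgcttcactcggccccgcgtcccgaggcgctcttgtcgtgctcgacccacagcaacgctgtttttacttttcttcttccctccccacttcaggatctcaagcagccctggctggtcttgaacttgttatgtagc
The first 4 belong to genes that were higher in macrophages after 24 h of myelin, and Bub3 and Pttg1 are the genes whose levels followed the others least. Pttg1 was also higher after 24 h in co-cultured macrophages, by a smaller change, and Bub3 was not called there. Bub3 carries both elements in this window and Pttg1 carries neither. Birc5, Mad2l1, Nuf2 and Nusap1 also held neither over their whole RefSeq promoters of 300 bases. Over the macrophage libraries their levels correlated with the mean of the other genes at 0.97, 0.87, 0.95 and 0.99 in that order. The values were 0.69 for Bub3 and 0.74 for Pttg1. A link between these elements and how closely a gene followed the others was not tested.

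Of the 40 genes 35 had a promoter in the RefSeq table, which holds 300 bases a promoter (250 before the start and 50 after it). Bub3, Ect2 and Prc1 had a further promoter each, and a gene was counted if any of its promoters held a match. The CHR letters occurred in 28 of the 35 (80.0%), against 21.7% of all promoters of that length and 16.9% of the promoters of genes tested in macrophages. CCAAT occurred in 27 (77.1%), against 41.1% and 43.3%. Both occurred in 25 (71.4%), against 8.61% of all promoters and 7.19% of those of tested genes. The E2F letters searched on either strand were TTCCCGC along with TTGGCGC, then the variant TTCGCGC and lastly TTGCCGC. They occurred in 5 of the 35 (14.3%), against 10.9% and 19.6%. By contrast, among 36 promoters of an S phase list 24 held E2F letters (66.7%) and 8 held the CHR (22.2%). A match of letters is a description of the sequence and not a binding site, and the genes were picked by function, so these shares were not tested.

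Library totals ran from 7911378 to 15319104 counts with a median of 12262573, and all 40 genes passed the filter on low counts in both cell types. The libraries numbered replicate 1 stood apart. In 11 of the 12 the most abundant gene was CT010467.1, with 2.13% to 17.4% of counts, and in tumour cells kept alone the summed level of the 40 genes was highest in replicate 1 at every time. Macrophage libraries expressed 16 of 16 macrophage markers, with a summed level of 13000 to 23400 CPM (counts scaled to the size of the library) over the libraries. Tumour cell libraries expressed Pdgfra, Sox9, Cspg4, Tnc and the collagens Col1a1 and Col3a1, whereas the glial genes Olig1, Ptprz1, Bcan, Ncan and Gfap were at or near 0 CPM. Nes (nestin), also on the list of markers of the line, had a mean of 63 CPM in mono-cultured macrophages at 0 h, against 30.1 CPM in mono-cultured tumour cells at 0 h. A set of 50 marker genes gave an estimate of RNA from the other cell type. In co-cultured macrophages it made up 2.17% ± 1.12 at 0 h, 1.88% ± 1.28 at 6 h and 4.61% ± 0.28 at 24 h (SD, n = 3 each), and at most 0.0602% in mono-cultured ones. In tumour cells it made up 1.51% ± 1.34 at 0 h, 1.21% ± 1.01 at 6 h and 1.24% ± 1.02 at 24 h in co-culture, and 0.29% ± 0.26, 0.91% ± 1.04 and 1.40% ± 1.25 in mono-culture. Replicate 1 was near 0 in each tumour cell group, with 0.0243%, 0.0452% and 0.0557% in co-culture and at most 0.000812% in mono-culture. Replicates 2 and 3 had 1.74% to 2.63% in co-culture.

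Levels below are CPM after TMM normalisation, given in the order of replicates 1, 2 and 3, and changes are log2 values ± SE from edgeR's quasi-likelihood test. A gene is said to have risen, fallen or been called where its Benjamini-Hochberg adjusted p over all genes tested was under 0.05. Counts from DESeq2 and from refits with libraries or groups left out have no share of all genes beside them. In bulk RNA, more cycling cells and more RNA per cycling cell cannot be told apart.

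Summed over the 40 genes, co-cultured macrophages had 2714, 2443 and 1947 CPM at 0 h, 3707, 2775 and 2720 CPM at 6 h and 4198, 5236 and 4517 CPM at 24 h. Every 24 h library was above every 0 h library. Mono-cultured macrophages had 1750, 1937 and 1885 CPM at 0 h, 1843, 2670 and 2516 CPM at 6 h and 1859, 4086 and 3235 CPM at 24 h. Here replicates 2 and 3 were higher at 24 h, and replicate 1 was within the range of the 0 h libraries. Co-cultured tumour cells had 2264, 1616 and 1433 CPM at 0 h, 2235, 1596 and 1954 CPM at 6 h and 1624, 2358 and 1853 CPM at 24 h, with overlap between all 3 times. Mono-cultured tumour cells had 3314, 1221 and 1276 CPM at 0 h, 2798, 1366 and 1376 CPM at 6 h and 1353, 1039 and 814.7 CPM at 24 h. Replicate 1 was the highest at each time and overlapped the 0 h range at 24 h.

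**Figure D1:**
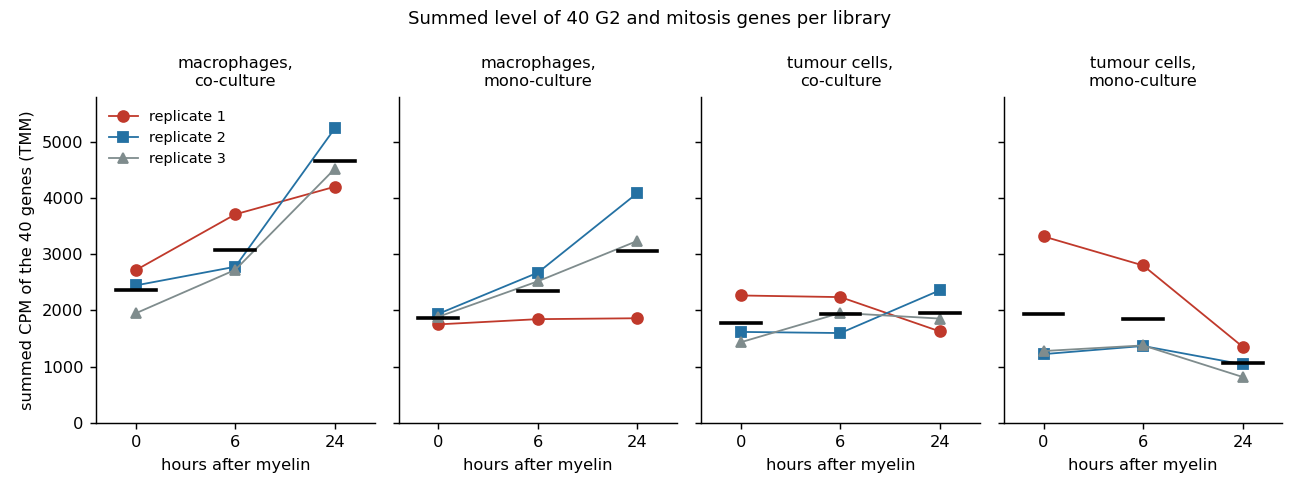
Summed CPM (TMM) of the 40 genes (y axis) against hours after myelin (x axis) in each library, with a panel per cell type and culture, a line per replicate number and a bar at the group mean. All 3 lines climb in co-cultured macrophages, where the sums at 24 h are 4198, 5236 and 4517, and replicate 1 stays flat in mono-cultured macrophages and is highest in mono-cultured tumour cells.

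In co-cultured macrophages 30 of the 40 genes rose at 24 h and none fell, by edgeR's quasi-likelihood test, against 5.39% of all genes tested that rose and 6.02% that fell. The median change of the 40 was 0.94, against -0.01 over all genes, and all 40 were positive. Every one of the 40 had its 3 libraries at 24 h above its 3 libraries at 0 h, which held for 17.5% of all genes tested. With the replicate number as a block 32 rose and none fell, against 9.4% of all genes that rose and 10.3% that fell in that fit.

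The cyclins and regulators of CDK1 held the largest change. Ccnb2, a cyclin B that activates CDK1, had 70.6, 88.5 and 68.2 CPM at 24 h, against 26.1, 24.6 and 18.5 CPM at 0 h (log2 change 1.72 ± 0.28, edgeR adjusted p = 0.00192). Ccnb1, the main mitotic cyclin B, had 81.5, 119.5 and 97.6 CPM at 24 h, against 39.0, 41.5 and 29.7 CPM at 0 h (1.44 ± 0.25, edgeR adjusted p = 0.00287). For both cyclins the groups were far apart, and the lowest 24 h library had more than any 0 h library. Cdc25c, a phosphatase that activates CDK1 at mitotic entry, was low, with 14.3, 16.7 and 15.0 CPM at 24 h, against 5.67, 5.44 and 5.44 CPM at 0 h (1.48 ± 0.26, edgeR adjusted p = 0.00275). Cdc25b, a phosphatase of the same family, rose by 1.37 ± 0.24. The kinase gene Cdk1 itself had 110.1, 134 and 122 CPM at 24 h, against 92.4, 97.3 and 77.6 CPM at 0 h, a change of 0.45 ± 0.25 that was not called (edgeR adjusted p = 0.255). Its libraries did not overlap, but the step was small beside that of its cyclin B partners. Ccna2, the cyclin of S phase and G2, changed by 0.70 ± 0.27 and Ccnf, which helps to mark proteins for destruction in G2, by 0.49 ± 0.23, and neither was called (edgeR adjusted p = 0.105 and 0.173).

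Among the mitotic kinases Plk1, which acts from mitotic entry to cytokinesis, had 68.3, 70.6 and 51.8 CPM at 24 h, against 30.4, 26.2 and 19.1 CPM at 0 h (1.34 ± 0.29, edgeR adjusted p = 0.00843). Birc5 (survivin, of the chromosomal passenger complex) had 74.5, 92.0 and 81.6 CPM at 24 h, against 44.6, 44.8 and 35.1 CPM at 0 h (0.99 ± 0.29, edgeR adjusted p = 0.0391). Both had every 24 h library above the 0 h range. Aurka, the spindle pole kinase, rose by 0.93 ± 0.20 and Cdca8 (borealin, of the passenger complex) by 0.74 ± 0.22, while Aurkb, the kinase of that complex, changed by 0.86 ± 0.28 and was not called (edgeR adjusted p = 0.0578). The spindle checkpoint was the group with the fewest calls, 1 of 5. Bub1b, a checkpoint protein at the kinetochore, rose by 0.90 ± 0.23. The other 4 were not called: the kinase Bub1 changed by 0.81 ± 0.27, the kinase Ttk by 0.65 ± 0.24, Mad2l1, which restrains CDC20, by 0.42 ± 0.23 and Bub3 by 0.20 ± 0.12. Bub3, which brings BUB1 and BUB1B to the kinetochore, had 99.4, 109 and 101 CPM at 24 h, against 86.3, 91.9 and 91.7 CPM at 0 h. Its groups did not overlap, and the distance between them was small beside its level. With the replicate block Bub1 was called (edgeR adjusted p = 0.0388).

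At the centromere and kinetochore 4 of 6 rose. Cenpf, a kinetochore protein of late G2, had 98.6, 99.1 and 92.9 CPM at 24 h, against 48.7, 30.9 and 25.4 CPM at 0 h (1.48 ± 0.25, edgeR adjusted p = 0.00264). Cenpa, the histone H3 variant that marks the centromere, had 63.7, 77.5 and 69.4 CPM at 24 h, against 30.1, 25.9 and 22.9 CPM at 0 h (1.42 ± 0.22, edgeR adjusted p = 0.00143). The 3 libraries at 24 h lay close together for Cenpf, and for both genes they lay above all those at 0 h. The kinesin Cenpe rose by 0.91 ± 0.20 and Spc25, of the NDC80 complex, by 0.85 ± 0.22. The other subunits of that complex, Ndc80 (0.67 ± 0.26) and Nuf2 (0.78 ± 0.24), were not called (edgeR adjusted p = 0.102 and 0.0533), and Nuf2 was called with the block (edgeR adjusted p = 0.04).

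All 6 genes of spindle motors and microtubule proteins rose. Hmmr, a protein of the spindle poles, had 80.2, 102 and 85.0 CPM at 24 h, against 38.8, 37.3 and 29.8 CPM at 0 h (1.34 ± 0.22, edgeR adjusted p = 0.00215). Kif2c, a kinesin that shortens microtubules, had 52.7, 64.6 and 50.7 CPM at 24 h, against 28.2, 24.6 and 17.6 CPM at 0 h (1.26 ± 0.28, edgeR adjusted p = 0.0109). Neither gene's libraries overlapped. The bipolar spindle motor Kif11, the chromosome motor Kif4, the microtubule nucleation factor Tpx2 and the spindle protein Nusap1 rose by 0.94 ± 0.26, 0.92 ± 0.24, 0.90 ± 0.22 and 1.09 ± 0.27 in that order. All 5 cytokinesis genes rose too: Prc1, which bundles the central spindle, by 1.08 ± 0.27, the kinesins Kif20a and Kif23 by 1.07 ± 0.26 and 1.06 ± 0.20, Ect2, which activates RhoA at the division plane, by 1.01 ± 0.21 and the scaffold Anln by 0.90 ± 0.27.

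Per kilobase of exon Mki67 and Top2a were the most abundant of the 40 genes at 24 h, with means of 71.3 and 68.1 CPM per kilobase, followed by Ccnb2 with 49.5, and Cdc25c was the least abundant with 3.12. Mki67, the proliferation marker Ki-67 that coats mitotic chromosomes, had 631, 809.8 and 709.9 CPM at 24 h, against 427, 276 and 222 CPM at 0 h (1.22 ± 0.25, edgeR adjusted p = 0.00625). Top2a, the topoisomerase that untangles chromosomes, had 546, 702 and 592 CPM at 24 h, against 368, 356 and 276 CPM at 0 h (0.88 ± 0.26, edgeR adjusted p = 0.0414). For both genes replicate 1 was the highest at 0 h and replicate 2 the highest at 24 h, with no overlap.

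All 4 genes of the anaphase-promoting complex and its targets rose. Ube2c, the ubiquitin-conjugating enzyme of the complex, had 67.6, 86.9 and 72.8 CPM at 24 h, against 31.9, 27.3 and 21.5 CPM at 0 h (1.50 ± 0.27, edgeR adjusted p = 0.00343). Cdc20, its mitotic activator, had 53.5, 61.3 and 42.7 CPM at 24 h, against 21.2, 22.0 and 17.5 CPM at 0 h (1.37 ± 0.22, edgeR adjusted p = 0.00184). The groups were apart for both. Pttg1 (securin), which holds back separase until anaphase, had 14.8, 14.2 and 15.7 CPM at 24 h, against 10.4, 9.13 and 9.74 CPM at 0 h (0.61 ± 0.13, edgeR adjusted p = 0.00839). Cdca3, which helps to trigger mitotic entry, rose by 1.11 ± 0.23. Without co-culture 24 h replicate 2 the count of called genes was 18, and without 0 h replicates 2 and 3 it was 19 and 16. RNA of tumour cells moved with this result, at 4.61% at 24 h and 2.17% at 0 h. The part of the 40 genes' CPM that it could supply had a median of 1.88% at 24 h and 1.57% at 0 h and was at most 5.21%. With that part subtracted, an alternative chosen after seeing the data, the median log2 ratio of group means was 1.01, as it was with it left in (1.01). Both values take this RNA to have the make-up of the co-cultured tumour cell libraries. Its part in the result was not tested.

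**Figure D2:**
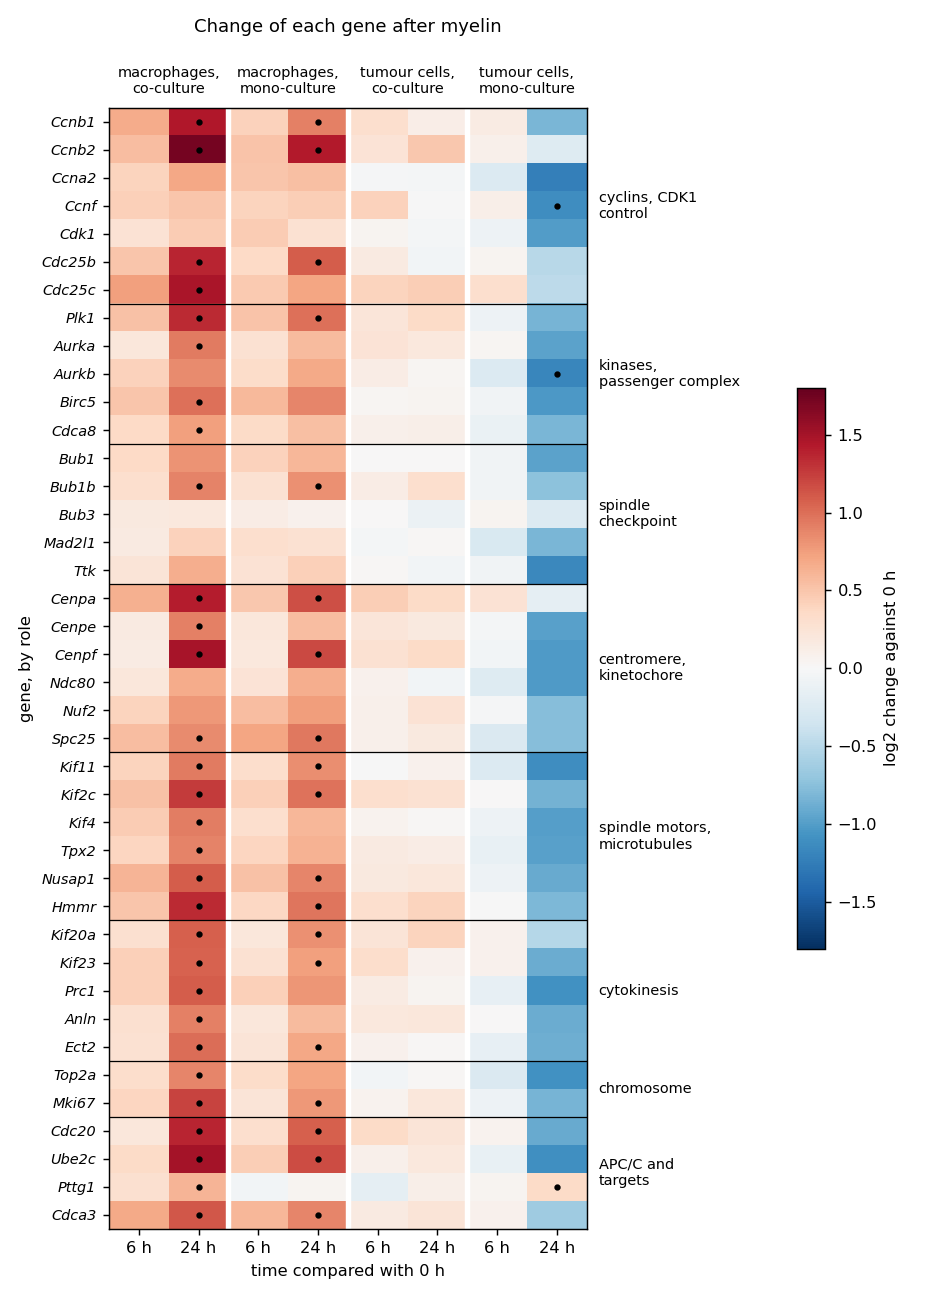
Log2 change of each of the 40 genes against 0 h (colour) at 6 h and 24 h in the 4 combinations of cell type and culture (columns), with genes in rows by role and a dot where the gene was called. In co-cultured macrophages 30 rows carry a dot at 24 h and in mono-cultured macrophages 19, and in mono-cultured tumour cells 2 lower genes and 1 higher gene do.

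In macrophages kept alone 19 of the 40 genes rose at 24 h and none fell, against 7.57% of all genes tested that rose and 7.61% that fell. The median change was 0.74, with that over all genes near 0, and all 40 were positive. Ccnb2 again changed most, with 30.4, 71.5 and 66.1 CPM at 24 h, against 19.9, 23.6 and 19.0 CPM at 0 h (1.43 ± 0.28, edgeR adjusted p = 0.00434). Cenpf had 40.3, 94.0 and 68.7 CPM at 24 h, against 32.8, 29.0 and 28.4 CPM at 0 h (1.18 ± 0.26, edgeR adjusted p = 0.00743). Ube2c had 26.1, 63.6 and 48.4 CPM at 24 h, against 19.8, 22.9 and 18.7 CPM at 0 h (1.17 ± 0.28, edgeR adjusted p = 0.0122). In all 3 genes replicate 1 stayed low at 24 h, close to the 0 h libraries, and replicates 2 and 3 were well above them.

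Other genes showed the same layout. Cenpa had 35.6, 69.1 and 68.5 CPM at 24 h, against 26.6, 25.9 and 25.7 CPM at 0 h (1.15 ± 0.22, edgeR adjusted p = 0.00348). Cdc20 had 22.8, 44.5 and 41.5 CPM at 24 h, against 19.8, 18.4 and 14.1 CPM at 0 h (1.07 ± 0.23, edgeR adjusted p = 0.00659). Mki67 had 292, 586 and 414 CPM at 24 h, against 259.7, 232 and 259 CPM at 0 h (0.79 ± 0.25, edgeR adjusted p = 0.0442). Replicate 1 was the lowest of the 24 h libraries each time, and for these 3 genes it still lay above the highest 0 h library. Among the other called genes Cdc25b rose by 1.09 ± 0.24, Plk1 by 0.99 ± 0.29, Kif2c by 0.98 ± 0.29, Hmmr by 0.96 ± 0.23, Ccnb1 by 0.91 ± 0.26, Bub1b by 0.82 ± 0.23, Kif20a by 0.82 ± 0.26 and Kif23 by 0.74 ± 0.20. Top2a had 216, 521 and 407 CPM at 24 h, against 197, 249 and 249.7 CPM at 0 h, and was not called (0.72 ± 0.26, edgeR adjusted p = 0.0781). Its replicate 1 lay inside the 0 h range. Birc5 (0.88 ± 0.30), Cdk1 (0.28 ± 0.25) and Bub3 (0.08 ± 0.12) were not called either (edgeR adjusted p = 0.0586, 0.519 and 0.709).

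Over the 40 genes the median change from the 0 h library to the 24 h library of the same number was 0.07 in replicate 1, 1.10 in replicate 2 and 0.79 in replicate 3 of mono-culture. In co-culture it was 0.63, 1.04 and 1.19. The 3 libraries at 24 h lay above the 3 at 0 h in 14 of the 40 genes in mono-culture, against 14.6% of all genes tested. The count of called genes in mono-culture rests on single libraries. It was 36 without 24 h replicate 1, 8 without 24 h replicate 2 or 3, and 10, 6 and 7 without 0 h replicates 1, 2 and 3.

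**Figure D3:**
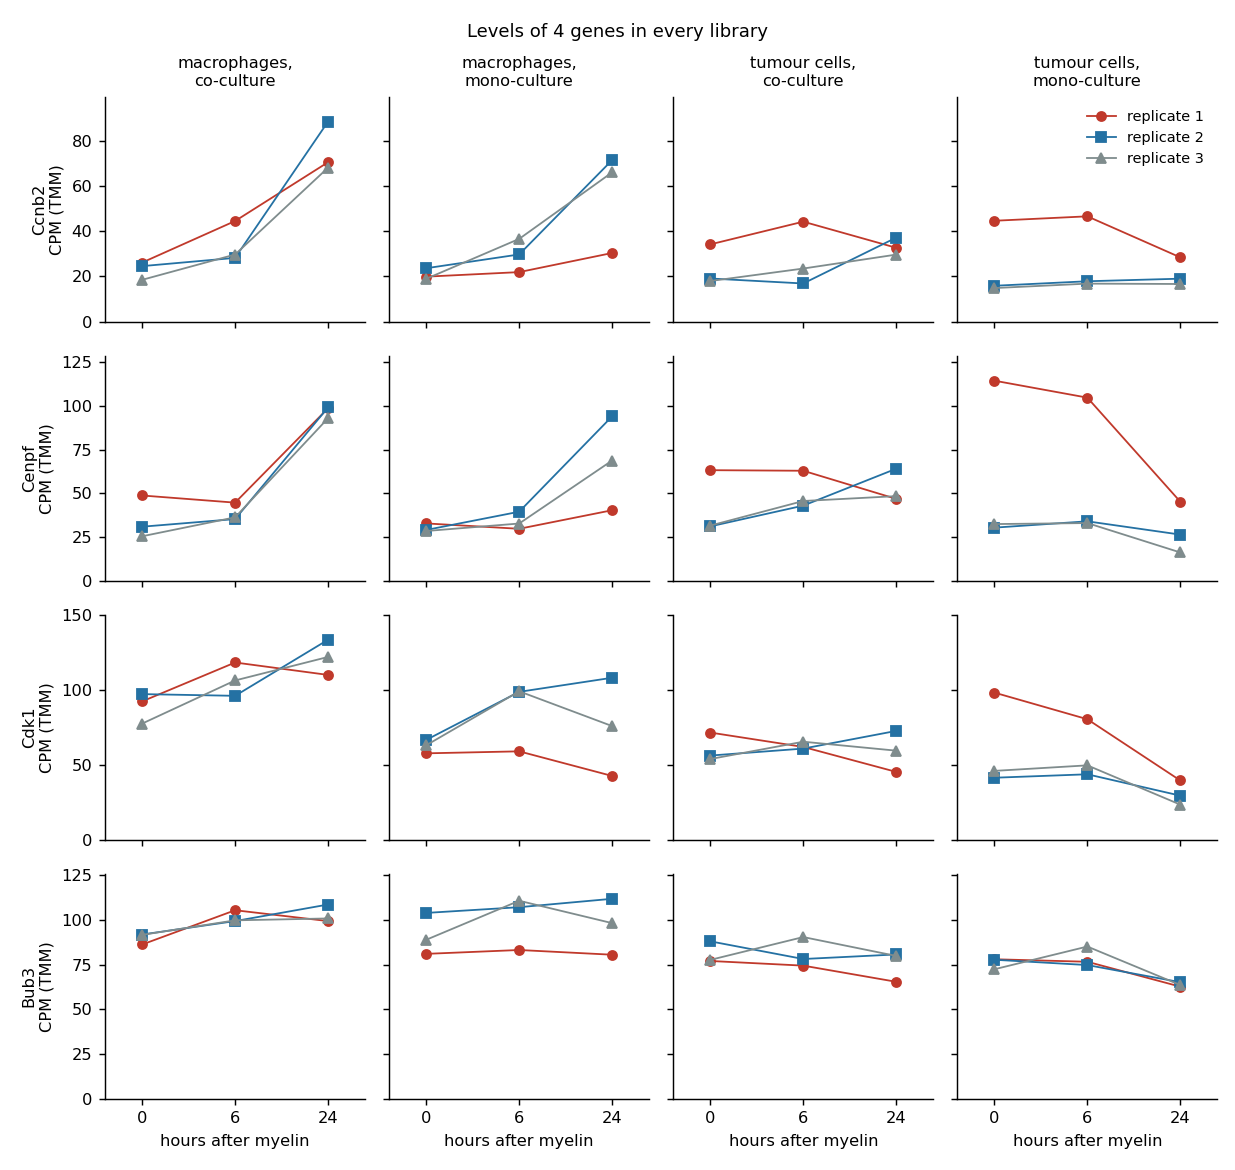
CPM (TMM) of Ccnb2, Cenpf, Cdk1 and Bub3 (rows, y axis from 0) against hours after myelin (x axis) in each library, with a panel per cell type and culture and a line per replicate number. Ccnb2 and Cenpf are highest at 24 h in macrophages, with replicate 1 of mono-culture the lowest there (30.4 CPM for Ccnb2), and Bub3 stays between 80.6 and 112 CPM in all macrophage libraries.

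At 6 h none of the 40 genes passed the threshold in macrophages, although nearly all were positive, 40 in co-culture and 39 in mono-culture. None was called in co-culture, against 0.122% of all genes higher and 0.0912% lower, and none in mono-culture, against 0.98% higher and 1.17% lower (2.15% in either direction). At an unadjusted p under 0.05 there were 9 in co-culture and 4 in mono-culture, and DESeq2 called 0 in both. The median change was 0.40 in co-culture and 0.35 in mono-culture. The 6 h libraries all lay above the 0 h libraries in 20 of the 40 in co-culture, against 11.6% of all genes, and in 7 in mono-culture, against 8.93%. Replicates 2 and 3 alone gave 2 called genes in co-culture and 11 in mono-culture. Ccnb1 had 66.0, 55.5 and 54.0 CPM at 6 h, against 39.0, 41.5 and 29.7 CPM at 0 h in co-culture (0.67 ± 0.25, edgeR adjusted p = 0.282). Its 6 h libraries were all above those at 0 h. In mono-culture Ccnb1 had 30.1, 50.8 and 46.4 CPM at 6 h, against 30.2, 35.7 and 30.8 CPM at 0 h (0.41 ± 0.26, edgeR adjusted p = 0.476), with replicate 1 at the low end of the 0 h range. Of the other genes followed throughout, the changes in co-culture and mono-culture were 0.53 ± 0.29 and 0.51 ± 0.30 for Plk1, 0.50 ± 0.29 and 0.58 ± 0.30 for Birc5 and 0.39 ± 0.25 and 0.24 ± 0.25 for Mki67. They were 0.32 ± 0.26 and 0.34 ± 0.26 for Top2a, 0.26 ± 0.25 and 0.46 ± 0.25 for Cdk1 and 0.17 ± 0.12 and 0.14 ± 0.12 for Bub3.

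Co-cultured macrophages had more RNA of 9 of the 40 genes than mono-cultured ones at 24 h, and less of none, against 14.3% of all genes tested that were higher and 13.7% that were lower. A count of 9 in 40 stands near that background. The median difference was 0.60, against -0.03 over all genes, and all 40 were positive. The 9 were Anln, Cdc25c, Mki67, Ect2, Ccnb1, Kif4, Hmmr, Aurka and Cenpe. Anln had 111, 151 and 125 CPM in co-culture, against 42.5, 107 and 72.1 CPM in mono-culture (0.80 ± 0.26, edgeR adjusted p = 0.0348). Ect2 had 72.0, 81.9 and 78.0 CPM in co-culture, against 27.2, 61.4 and 51.0 CPM in mono-culture (0.72 ± 0.21, edgeR adjusted p = 0.0187). Co-culture was above mono-culture in every library of both genes, and mono-culture replicate 1 was the lowest. Tumour cell RNA in the co-cultured macrophages at 24 h could supply 5.21% of the Anln CPM there, the largest such part among the 40 genes. Mki67 (0.73 ± 0.25), Ccnb1 (0.71 ± 0.25), Cdc25c (0.75 ± 0.25), Kif4 (0.70 ± 0.24), Hmmr (0.66 ± 0.22), Aurka (0.65 ± 0.20) and Cenpe (0.61 ± 0.20) were the other called genes. Plk1 (0.75 ± 0.28), Top2a (0.69 ± 0.26), Cdk1 (0.69 ± 0.25), Birc5 (0.61 ± 0.29) and Bub3 (0.09 ± 0.12) were not called (edgeR adjusted p from 0.0514 to 0.642). Without co-culture replicates 2 and 3 the count was 0 and 2, and without mono-culture replicates 1, 2 and 3 it was 1, 30 and 2.

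Before myelin and at 6 h no difference between the cultures was called in macrophages. At 0 h this was against 7.69% of all genes higher and 6.02% lower, and at 6 h against 5.81% and 4.12% (9.94% in either direction). The median difference of the 40 was 0.34 at 0 h and 0.39 at 6 h, with 2 genes and 1 gene at an unadjusted p under 0.05 and 0 called by DESeq2 at either time. By number the median was 0.61, 0.33 and 0.10 in replicates 1, 2 and 3 at 0 h. At 6 h, where the numbers did not pair the libraries, it was 1.05, 0.02 and 0.06, so that shift lay mostly in replicate 1. With only the groups compared in the edgeR fit, 7 were called at 0 h, all higher in co-culture. That fit has no share of all genes to set beside the 7. At 0 h the difference was 0.18 ± 0.26 for Ccnb1, 0.40 ± 0.30 for Plk1, 0.30 ± 0.25 for Mki67, 0.49 ± 0.30 for Birc5 and -0.03 ± 0.12 for Bub3. At 6 h it was 0.44 ± 0.25 for Ccnb1, 0.31 ± 0.25 for Cdk1, 0.42 ± 0.29 for Plk1, 0.45 ± 0.25 for Mki67, 0.51 ± 0.26 for Top2a, 0.41 ± 0.29 for Birc5 and 0.01 ± 0.12 for Bub3. Top2a had 368, 356 and 276 CPM in co-culture, against 197, 249 and 249.7 CPM in mono-culture at 0 h (0.52 ± 0.26, edgeR adjusted p = 0.219). Every co-culture library was above every mono-culture library, and the difference did not pass the test. Cdk1 had 92.4, 97.3 and 77.6 CPM in co-culture, against 57.7, 66.7 and 63.1 CPM in mono-culture at 0 h (0.51 ± 0.25, edgeR adjusted p = 0.215), and these libraries did not overlap either. The 24 h change in co-culture minus that in mono-culture had a median of 0.27 over the 40 genes and was called for none, against 0% of all genes higher and 0.0152% lower. The lowest adjusted p was 0.46 by edgeR, 1 gene had an unadjusted p under 0.05, and DESeq2 called 0. That 30 genes passed in co-culture and 19 in mono-culture is therefore not shown to be a difference between the cultures. This difference of changes was 0.53 ± 0.36 for Ccnb1, 0.18 ± 0.35 for Cdk1, 0.35 ± 0.41 for Plk1, 0.43 ± 0.35 for Mki67, 0.16 ± 0.37 for Top2a, 0.11 ± 0.41 for Birc5 and 0.11 ± 0.17 for Bub3.

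In tumour cells kept alone Ccnf and Aurkb fell at 24 h and Pttg1 rose, 3 of the 40 genes, against 6.81% of all genes tested that fell and 3.66% that rose. These counts, from the fit without the replicate block, stand near that background. The 3 libraries at 24 h lay below the 3 at 0 h in 13 of the 40 genes, against 17.5% of all genes tested. They lay above them in 1, against 16.7%. The median change of the 40 was -0.89, against 0.01 over all genes, and 39 were negative. Ccnf had 12.3, 9.12 and 8.83 CPM at 24 h, against 34.4, 13.8 and 17.6 CPM at 0 h (-1.11 ± 0.29, edgeR adjusted p = 0.0261). Aurkb had 12.5, 9.97 and 10.1 CPM at 24 h, against 41.9, 15.5 and 16.3 CPM at 0 h (-1.17 ± 0.35, edgeR adjusted p = 0.0469). All 24 h libraries were below all 0 h libraries in both genes, and 0 h replicate 1 stood far above the other 0 h libraries. Pttg1 had 14.6, 14.2 and 13.6 CPM at 24 h, against 11.1, 11.6 and 10.5 CPM at 0 h (0.35 ± 0.10, edgeR adjusted p = 0.0454), again without overlap and with a narrow spread in each group.

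The same replicate numbers deviated together in tumour cells, and with the number as a block 20 of the 40 genes fell at 24 h and 1 rose, against 15% of all genes that fell and 12.9% that rose in that fit. These are values of the blocked fit. Top2a had 129, 94.6 and 75.1 CPM at 24 h, against 366, 133 and 138 CPM at 0 h (-1.02 ± 0.28 with the block, edgeR adjusted p = 0.0146, and -1.09 ± 0.36 without it, edgeR adjusted p = 0.0649). Cdk1 had 39.6, 29.4 and 23.5 CPM at 24 h, against 98.3, 41.4 and 46.0 CPM at 0 h (-0.97 ± 0.27 with the block, edgeR adjusted p = 0.0158) and was not called without it (edgeR adjusted p = 0.0549). Each gene was lower at 24 h in all 3 numbers, by most in replicate 1. Without the block the changes were -1.03 ± 0.41 for Birc5, -0.25 ± 0.09 for Bub3, -0.82 ± 0.38 for Ccnb1, -0.84 ± 0.43 for Plk1 and -0.84 ± 0.43 for Mki67, none of them called. Birc5 (-0.98 ± 0.31) and Bub3 (-0.25 ± 0.09) were also called with the block (edgeR adjusted p = 0.032 and 0.0379), whereas Ccnb1 (-0.77 ± 0.31), Plk1 (-0.74 ± 0.28) and Mki67 (-0.70 ± 0.34) were not (edgeR adjusted p = 0.0798, 0.0666 and 0.136). Ccnb2, the gene that changed most in macrophages, had 28.4, 19.0 and 16.7 CPM at 24 h, against 44.6, 15.9 and 14.9 CPM at 0 h in tumour cells. Only its replicate 1 was lower at 24 h, and the groups overlapped. The 40 genes' median change by number was -1.30, -0.21 and -0.74 in replicates 1, 2 and 3. Without 0 h replicates 1 and 2 the count of called genes in the fit without the block was 0 and 6, and without 24 h replicates 1, 2 and 3 it was 1, 0 and 0. Macrophage RNA in these libraries was 1.40% ± 1.25 at 24 h and 0.29% ± 0.26 at 0 h (SD, n = 3 each), and its part in the result was not tested. The estimate depended on the markers, with 7.22% at 24 h and 1.47% at 0 h by a fixed list of macrophage markers and 0.468% and 0.117% by 20 markers at the same times.

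In co-cultured tumour cells the 40 genes were not called at 24 h, against 0.478% of all genes that rose and 0.309% that fell. Their median change was 0.13. None had an unadjusted p under 0.05, and DESeq2 called 0. Top2a had 172, 242 and 203 CPM at 24 h, against 250.0, 192 and 163 CPM at 0 h (0.03 ± 0.35, edgeR adjusted p = 0.983). Its groups overlapped, with replicate 1 lower at 24 h and replicates 2 and 3 higher. Plk1 (0.34 ± 0.43), Mki67 (0.20 ± 0.43), Ccnb1 (0.12 ± 0.37), Birc5 (0.05 ± 0.40), Cdk1 (-0.03 ± 0.31) and Bub3 (-0.10 ± 0.09) were not called. By number the median change of the 40 was -0.49, 0.55 and 0.38. At 6 h none of the 40 was called in co-culture (median 0.14) or in mono-culture (median -0.06), against 0.00735% of all genes that rose in co-culture, 0% that rose in mono-culture and 0.00735% that fell in either (0.0147% in both directions in co-culture). At an unadjusted p under 0.05 there were 0 in co-culture and 0 in mono-culture at 6 h, and DESeq2 called 0 in both. The 6 h changes in co-culture and mono-culture were 0.30 ± 0.37 and 0.15 ± 0.38 for Ccnb1, 0.05 ± 0.31 and -0.10 ± 0.31 for Cdk1, 0.22 ± 0.43 and -0.09 ± 0.43 for Plk1 and 0.07 ± 0.43 and -0.09 ± 0.43 for Mki67. They were -0.06 ± 0.35 and -0.27 ± 0.35 for Top2a, 0.04 ± 0.40 and -0.07 ± 0.40 for Birc5 and 0.00 ± 0.09 and 0.05 ± 0.09 for Bub3. In the fit to replicates 2 and 3 alone, 19 of the 40 were called in co-culture at 24 h. The share of all genes called in that fit was not taken, so this count has no background.

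At 24 h co-cultured tumour cells had a median of 0.93 more on the log2 scale than mono-cultured ones over the 40 genes, against -0.01 over all genes, and 39 were positive. None was called by edgeR without the block, against 0.0735% of all genes higher and 0.00735% lower (0.0809% in either direction), while 26 had an unadjusted p under 0.05 and DESeq2 called 1. With the replicate block 18 were higher and none lower, against 4.39% of all genes higher and 1.73% lower in that fit. In 35 of the 40 the 3 co-culture libraries lay above the 3 mono-culture libraries, against 10.5% of all genes. Top2a had 172, 242 and 203 CPM in co-culture, against 129, 94.6 and 75.1 CPM in mono-culture (1.12 ± 0.28 with the block, edgeR adjusted p = 0.036, and 1.05 ± 0.36 without it, edgeR adjusted p = 0.211). Aurka had 21.9, 39.0 and 28.6 CPM in co-culture, against 16.8, 14.3 and 10.7 CPM in mono-culture (1.17 ± 0.31 with the block, edgeR adjusted p = 0.0429). Prc1 had 54.6, 86.8 and 65.2 CPM in co-culture, against 45.3, 32.8 and 25.4 CPM in mono-culture (1.08 ± 0.28 with the block, edgeR adjusted p = 0.0413). The co-culture libraries were the higher ones in all 3 genes, and the libraries numbered 1 lay closest together. Aurka and Prc1 were picked here after their values were seen. Without the block the differences were 0.94 ± 0.43 for Plk1, 1.03 ± 0.41 for Birc5, 0.94 ± 0.31 for Cdk1, 0.81 ± 0.43 for Mki67, 0.92 ± 0.38 for Ccnb1 and 0.24 ± 0.09 for Bub3. Plk1 (1.03 ± 0.28), Birc5 (1.12 ± 0.31) and Cdk1 (1.00 ± 0.27) were called with the block (edgeR adjusted p = 0.0473, 0.0489 and 0.0429), and Mki67 (0.88 ± 0.33), Ccnb1 (1.00 ± 0.31) and Bub3 (0.24 ± 0.09) were not (edgeR adjusted p = 0.133, 0.0676 and 0.11).

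At 0 h and 6 h none of the 40 differed between the cultures of tumour cells past the threshold (medians -0.12 and 0.07), against 0% of all genes at either time, with 0 and 0 genes at an unadjusted p under 0.05. DESeq2 called 0 at 6 h, and at 0 h it gave an adjusted p for 9 of the 40 genes and called none of these. Mki67 had 189, 120.5 and 128 CPM in co-culture, against 313, 94.4 and 105 CPM in mono-culture at 0 h (-0.23 ± 0.43, edgeR adjusted p = 0.947). Replicate 1 was higher in mono-culture, and replicates 2 and 3 were higher in co-culture. The differences at 0 h and 6 h were -0.02 ± 0.38 and 0.13 ± 0.37 for Ccnb1, -0.03 ± 0.31 and 0.12 ± 0.31 for Cdk1, -0.24 ± 0.43 and 0.07 ± 0.43 for Plk1 and -0.07 ± 0.35 and 0.14 ± 0.35 for Top2a. They were -0.05 ± 0.40 and 0.05 ± 0.40 for Birc5 and 0.09 ± 0.09 and 0.04 ± 0.09 for Bub3, and at 6 h -0.07 ± 0.43 for Mki67. The 24 h change in co-culture minus that in mono-culture had a median of 1.04 over the 40 genes. It was called for none of the 40 and for 0% of all genes, with 9 of the 40 at an unadjusted p under 0.05, 0 called by DESeq2 and 0 with the block, against 0.00735% of all genes higher and 0.198% lower with it. By number the median of this difference was 0.83, 0.80 and 1.07, with 39 of the 40 genes positive each time. It was 1.12 ± 0.50 for Top2a, 1.18 ± 0.61 for Plk1, 1.04 ± 0.61 for Mki67, 0.94 ± 0.53 for Ccnb1, 1.08 ± 0.57 for Birc5, 0.97 ± 0.44 for Cdk1 and 0.15 ± 0.13 for Bub3, and edgeR's adjusted p was 1 for all 40 genes.

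Before myelin most of the 40 genes did not differ past the threshold between the 2 cell types kept alone. Macrophages had more Ccnf and Bub3 and less Anln and Cdc20 than tumour cells, 4 of 40 called, against 32.4% of all genes higher and 37.7% lower (70% in either direction). The median difference was 0.09, and it covers replicates that went opposite ways. By number the median was -0.93, 0.77 and 0.63 in replicates 1, 2 and 3, although the numbers did not pair these libraries. In replicate 1, 39 of the 40 genes were lower in macrophages, and in replicates 2 and 3, 38 and 35 were higher. Anln had 42.7, 54.1 and 52.0 CPM in macrophages, against 254, 89.6 and 96.1 CPM in tumour cells (-1.49 ± 0.39, edgeR adjusted p = 0.00134). Cdc20 had 19.8, 18.4 and 14.1 CPM in macrophages, against 70.6, 28.9 and 24.4 CPM in tumour cells (-1.19 ± 0.36, edgeR adjusted p = 0.00502). In both genes all tumour cell libraries were above all macrophage libraries, replicate 1 by most. Bub3 had 81.1, 104 and 89.0 CPM in macrophages, against 78.1, 77.8 and 72.5 CPM in tumour cells (0.33 ± 0.13, edgeR adjusted p = 0.0226). Ccnf had 34.3, 41.9 and 40.5 CPM in macrophages, against 34.4, 13.8 and 17.6 CPM in tumour cells (0.91 ± 0.28, edgeR adjusted p = 0.0048), where 1 tumour cell library, replicate 1, reached the macrophage range. These CPM were normalised within each cell type, while the changes come from 1 fit over both. Top2a (0.20 ± 0.33), Cdk1 (0.09 ± 0.30), Birc5 (0.17 ± 0.38), Ccnb1 (-0.01 ± 0.34), Mki67 (0.61 ± 0.36) and Plk1 (-0.62 ± 0.39) were not called. Without tumour cell 0 h replicate 1 the count was 19, of which 18 were higher in macrophages.

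The 24 h changes of the 2 cell types were compared in 1 fit. The change in macrophages minus that in tumour cells, both kept alone, was called for 17 of the 40 genes, all higher, against 2.31% of all genes higher and 1.58% lower. Its median was 1.63, against 0.01 over all genes, and 39 were positive. Ube2c gave the largest called difference (2.30 ± 0.53, edgeR adjusted p = 0.0134). It had 26.1, 63.6 and 48.4 CPM at 24 h, against 19.8, 22.9 and 18.7 CPM at 0 h in macrophages, and 15.3, 12.2 and 9.12 CPM at 24 h, against 48.7, 13.6 and 16.4 CPM at 0 h in tumour cells. In macrophages every 24 h library was above every 0 h library. In tumour cells the groups overlapped, since 24 h replicate 1 lay above 0 h replicate 2, and 0 h replicate 1 was far above the rest. Cenpf (2.23 ± 0.65, edgeR adjusted p = 0.0495), Cdc20 (2.02 ± 0.51, edgeR adjusted p = 0.0231), Kif11 (1.99 ± 0.54, edgeR adjusted p = 0.0355), Birc5 (1.95 ± 0.54, edgeR adjusted p = 0.038) and Prc1 (1.92 ± 0.47, edgeR adjusted p = 0.0207) followed. Pttg1 was the 1 gene with a negative difference (-0.27 ± 0.18), and Bub3 (0.37 ± 0.18), Cdk1 (1.31 ± 0.43), Plk1 (1.86 ± 0.55) and Mki67 (1.67 ± 0.51) were not called. Top2a (1.84 ± 0.47) and Ccnb1 (1.76 ± 0.49) were called (edgeR adjusted p = 0.0242 and 0.039). The count of called genes was 1 without tumour cell 0 h replicate 1 and 30 and 28 without tumour cell 0 h replicates 2 and 3, and it was 4 and 3 without tumour cell 24 h replicates 2 and 3. It was 29, 3 and 3 without macrophage 24 h replicates 1, 2 and 3, and 6, 8 and 6 without macrophage 0 h replicates 1, 2 and 3.

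**Figure D4:**
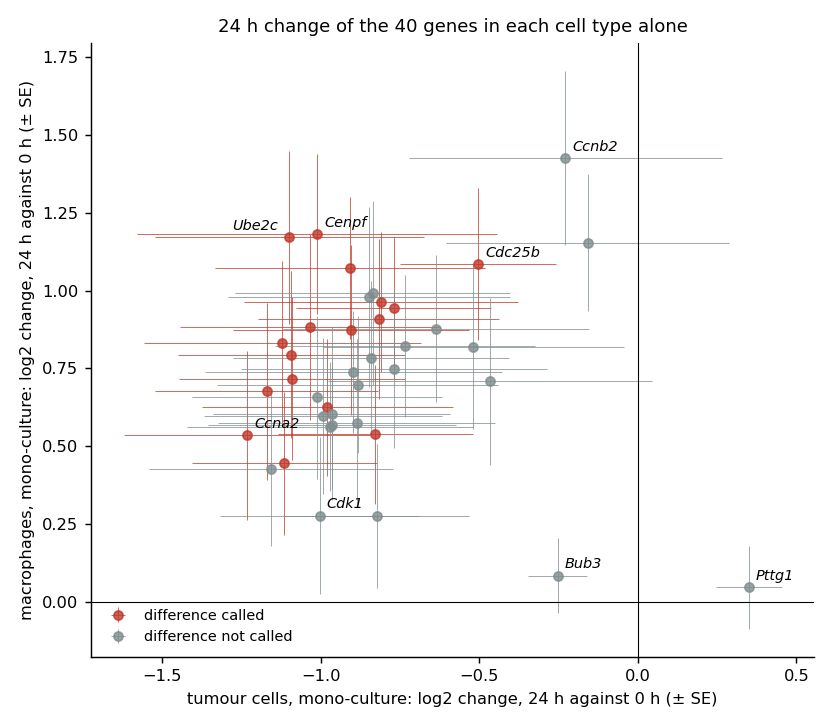
Log2 change at 24 h against 0 h of the 40 genes in macrophages kept alone (y axis) and in tumour cells kept alone (x axis), a point per gene with bars of ± SE and in red where the difference between the cell types was called. All 40 points lie above 0 on the macrophage axis, and 39 lie left of 0 on the tumour cell axis, with Pttg1 at 0.35 the exception.

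Other lists of cell cycle genes were read in the same comparisons, where the shares of all genes called are those given above for the 40 genes. Of 55 other G2 and mitosis genes 24 rose at 24 h in co-cultured macrophages and none fell, with a median of 0.63. Aspm, a protein of the spindle poles, changed by 1.39 ± 0.26 (edgeR adjusted p = 0.00426) and the kinetochore protein gene Knstrn by 1.36 ± 0.24 (edgeR adjusted p = 0.00313). In mono-culture 15 of these 55 rose, with a median of 0.52, led by Psrc1, a spindle protein (1.55 ± 0.22, edgeR adjusted p = 0.000403). S phase genes had negative medians in both cultures. Of 46 genes of DNA replication and S phase, 1 rose and 1 fell in co-culture (median -0.27), and 1 rose and 8 fell in mono-culture (median -0.45). The gene that rose in both was Dbf4, which activates the replication kinase CDC7 (0.77 ± 0.15 in co-culture and 0.70 ± 0.15 in mono-culture, edgeR adjusted p = 0.00428 and 0.00707). Ung, a uracil-DNA glycosylase, changed by -1.25 ± 0.19 in co-culture and -1.69 ± 0.21 in mono-culture (edgeR adjusted p = 0.00121 and 0.0001). Uhrf1, which maintains DNA methylation at replication, had a change of -1.09 ± 0.28 in mono-culture (edgeR adjusted p = 0.016). With the block 18 S phase genes fell in mono-culture, against 11.6% of all genes that fell and 10.6% that rose in that fit, and 9 fell in co-culture, against 10.3% of all genes. The difference between the lists was not tested.

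Among 21 cell-cycle transcription factors 3 rose and 1 fell in co-cultured macrophages at 24 h, and 2 fell in mono-cultured ones, against 5.39% of all genes that rose and 6.02% that fell in co-culture and 7.61% that fell in mono-culture. Foxm1, which drives G2 and mitosis genes, rose in co-culture (0.95 ± 0.27, edgeR adjusted p = 0.0328) and had 0.74 ± 0.27 in mono-culture, where it was not called (edgeR adjusted p = 0.0818). Lin54, the MuvB subunit that binds the CHR, rose in co-culture by 0.38 ± 0.11 (edgeR adjusted p = 0.0393). E2f1, an activator of S phase genes, changed by -0.63 ± 0.14 in mono-culture (edgeR adjusted p = 0.00628). The G1 list had 5 of 8 lower and 1 higher in mono-cultured macrophages (median -0.77), among them Ccnd1, a D cyclin (-1.67 ± 0.42, edgeR adjusted p = 0.017), and Myc, a growth transcription factor (-1.47 ± 0.29, edgeR adjusted p = 0.00479). In co-culture none of the 8 was called (median -0.14, 1 at an unadjusted p under 0.05, edgeR). Between the cultures at 24 h the same list was higher in co-culture in 6 of 8, led by Ccnd2, another D cyclin (4.84 ± 0.47, edgeR adjusted p = 8.31e-06). S phase genes were higher in co-culture in 23 of 46 (median 0.67), among them Ccne1, the cyclin E that starts S phase (1.08 ± 0.28, edgeR adjusted p = 0.00943). Ccnd2 was far lower in macrophages than in tumour cells before myelin (-7.78 ± 0.49, edgeR adjusted p = 6.42e-14), and tumour cell RNA made up 4.61% of the co-cultured macrophage libraries at 24 h. The part of that RNA in the Ccnd2 value was not tested. Of 17 tested brakes on the cycle 2 rose in co-culture and 5 rose and 1 fell in mono-culture, among them Cdkn2d, a CDK4 and CDK6 inhibitor (1.14 ± 0.18 in co-culture, edgeR adjusted p = 0.00147), and Ccng2, a cyclin linked to arrest (1.27 ± 0.17 in mono-culture, edgeR adjusted p = 0.000271). Of 17 subunits and regulators of the anaphase-promoting complex 3 rose in co-culture, among them Ube2s, its chain-elongating enzyme (0.68 ± 0.17, edgeR adjusted p = 0.0155), and 1 in mono-culture.

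In tumour cells kept alone members of the other lists fell as well. Of the 46 S phase genes 40 fell and none rose, with a median of -1.11. Exo1, an exonuclease of DNA repair and replication, changed by -1.57 ± 0.27 (edgeR adjusted p = 0.00295) and Chaf1b, of a histone chaperone, by -1.49 ± 0.32 (edgeR adjusted p = 0.00928). Of the 55 other G2 and mitosis genes 13 fell without the block, against 6.81% of all genes, and 34 with it, against 15% (median -0.98), among them Kif18b, a kinesin (-1.30 ± 0.33, edgeR adjusted p = 0.0223). Of the transcription factors 7 fell, led by the E2F repressor E2f8 (-1.59 ± 0.32, edgeR adjusted p = 0.00671), and of the G1 list 5 of 8 fell, Myc by most (-1.20 ± 0.29, edgeR adjusted p = 0.0182). Of the 17 tested brakes 3 fell, and of the 17 subunits and regulators of the anaphase-promoting complex 1 rose and 1 fell. In co-cultured tumour cells no gene of the 6 lists was called at 24 h by edgeR without the block. At an unadjusted p under 0.05 there were 4 S phase genes, 0 of the 55, 3 transcription factors and 3 of the G1 list. The brakes had 4 and the anaphase-promoting complex list 1. Before myelin macrophages had more of 31 of the 46 S phase genes than tumour cells and less of none (median 0.73), among them Pcna, the sliding clamp of DNA polymerase (2.71 ± 0.22, edgeR adjusted p = 1.24e-11), against 2 of the 40 G2 and mitosis genes. That 2 became 18 without tumour cell 0 h replicate 1 and 29 with replicates 2 and 3 alone. The S phase count was not taken in those fits. The median SE was 0.35 for the 40 genes and 0.24 for the S phase list, and the contrast between the lists was not tested.

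**Figure D5:**
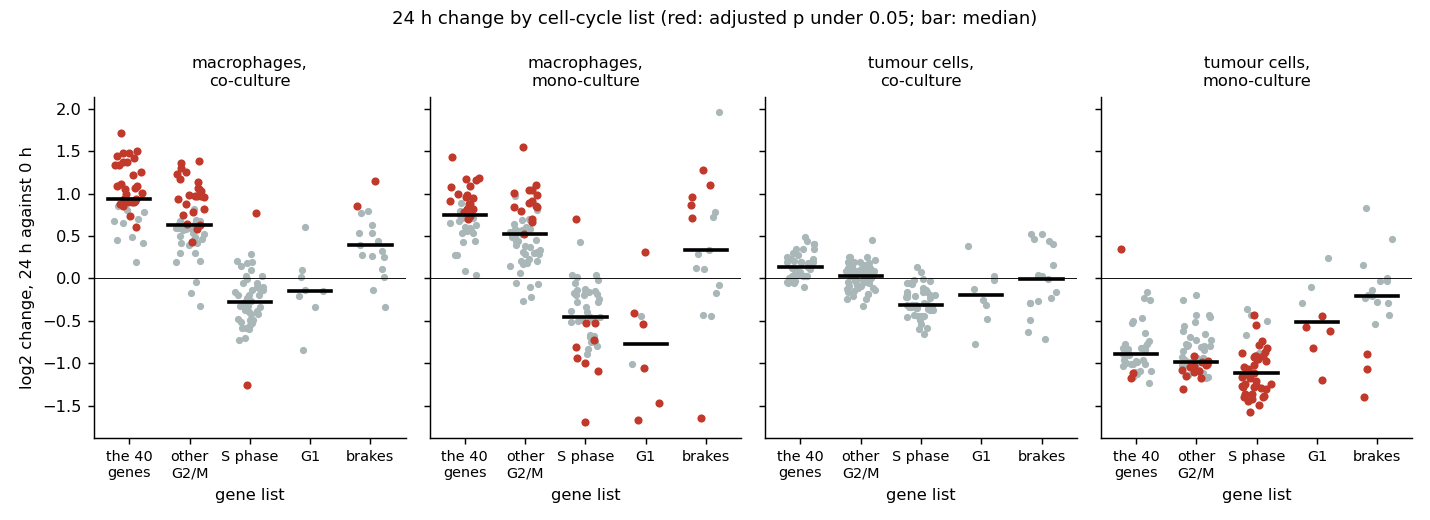
Log2 change at 24 h against 0 h (y axis) of every gene tested in 5 cell-cycle lists (x axis), a panel per cell type and culture, in red where called and with a bar at the list median. In co-cultured macrophages the 40 genes and most other G2 and mitosis genes lie above 0 and most S phase genes below it (medians 0.94, 0.63 and -0.27), and in tumour cells kept alone all 3 medians lie below 0.

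The 40 genes varied together. Over the 18 macrophage libraries the correlation of each gene's log2 CPM with the mean of the other 39 had a median of 0.95 and was over 0.9 for 35 genes, and over the 18 tumour cell libraries the median was 0.97, with 33 genes over 0.9. These libraries share their groups, replicate numbers and depths, so the values describe the set and are no test. Bub3 (0.69 in macrophages and 0.46 in tumour cells) and Pttg1 (0.74 and -0.37) followed the rest least. Bub3 lay between 80.6 and 112 CPM in all macrophage libraries and between 62.7 and 90.5 CPM in all tumour cell libraries. Pttg1 lay between 9.13 and 15.7 CPM in macrophages and between 9.45 and 14.6 CPM in tumour cells. Both ranges are narrow beside that of Ccnb2, which ran from 18.5 to 88.5 CPM in macrophages. Cdk1 stood between, with 42.6 to 134 CPM in macrophages and a correlation of 0.84.

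Some of the counts carry limits of annotation. Exons of 11 of the 40 genes overlap exons of a gene on the opposite strand in the GENCODE annotation, by 1271 bases for Kif20a, 911 for Prc1, 832 for Kif4, 623 for Cdc25c, 592 for Ube2c and 510 for Ccna2, and by 53 to 232 bases for Cdc20, Cdc25b, Plk1, Nusap1 and Cdca8. The sources used here do not say whether the counting used strand, so these values may include reads of the partner. On the same strand, exons of Top2a overlap Gm23451 by 122 bases and those of Ccnf overlap Mir5134 by 8 bases. The processed copies Ccnb1-ps and Ccnb2-ps had 1 and 21 counts in all libraries together.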

How the data were processed

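RNA was sequenced in 36 libraries of 12 groups with 3 libraries each. The deposited table holds whole-number counts of reads per gene, not normalized by the authors. Per the labels' protocols, RNA came from purified cells and cDNA was made from low input with oligo-dT priming. The build was mm10, per the submitters' processing notes, and the sources used here give no aligner, counter or strand setting.

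Counts were filtered with edgeR 4.0.16 (filterByExpr), normalised by TMM and fitted by its quasi-likelihood method in R 4.3.3. The 18 libraries of a cell type were fitted together (13165 genes in macrophages and 13603 in tumour cells), and all 36 (14776 genes) for comparisons between cell types. Adjusted p-values are Benjamini-Hochberg over all genes tested, the threshold is 0.05, and the SE was taken as the change over the root of F. The replicate numbers were taken to pair libraries where same-numbered libraries deviated together with every correlation over 0.1. This held in all tumour cell comparisons (lowest 0.325) and in macrophages over time (lowest 0.157) and between cultures at 0 h (lowest 0.288).

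RNA of the other cell type is the median, over 50 marker genes with at least 100 CPM, of the level over that in their own mono-culture at 0 h. Alternatives were RLE size factors, no low-count filter, non-robust dispersion, a replicate block, replicates 2 and 3 alone, DESeq2 1.42.0, only the groups compared, and each library left out. The 40 genes, the other lists and the tests were chosen with earlier results of these data known. Ccnb1, Cdk1, Plk1, Mki67, Top2a, Birc5 and Bub3 are given in every comparison, and besides them the called genes of each role with the largest change and up to 10 that were not called. Olig2 and Mog were not analysed here.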

Additional observations from a re-analysis of the deposited data

Results flagged for a closer look

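The change at 24 h of myelin differed between macrophages and tumour cells kept alone for 17 of the 40 genes, as tested by the difference of the 2 changes in 1 edgeR fit over all libraries, against 2.31% of all genes higher and 1.58% lower. The count ran from 1 to 30 when 1 library was left out, and it was 4 without the low-count filter and 0 with only the groups compared. Among the genes named, the difference on the log2 scale (macrophages minus tumour cells) was 2.30 for Ube2c, 2.23 for Cenpf, 2.02 for Cdc20, 1.99 for Kif11, 1.95 for Birc5 and 1.92 for Prc1. It was 1.88 for Aurkb, 1.84 for Top2a, 1.81 for Nusap1, 1.80 for Ccna2, 1.76 for Ccnb1 and 1.75 for Spc25. No group has more than 3 libraries, so single libraries were not tested for standing apart from their group.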

How the results depend on the processing

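Counts below are of the 40 genes called. The share of all genes called was taken only in the main fit and with the replicate block. The other counts have no background beside them. They do not tell a change of the 40 genes from a change over all genes. Leaving out 1 library gave 16 to 28 in co-cultured macrophages at 24 h, 6 to 36 in mono-cultured ones, 0 to 30 between their cultures at 24 h, 0 to 6 in mono-cultured tumour cells at 24 h, 0 to 1 between their cultures at 24 h, 4 to 19 between cell types at 0 h, 1 to 30 for the difference of 24 h changes between cell types, and 0 in the other comparisons. Without the low-count filter there were 18 and 8 in co- and mono-cultured macrophages at 24 h, 1 between their cultures, 0 in mono-cultured tumour cells and 4 for the difference between cell types. With only the groups compared there were 6 in mono-cultured macrophages, 7 between their cultures at 0 h and 0 at 24 h, 0 in mono-cultured tumour cells and 0 for the difference between cell types. With the replicate block there were 19 between macrophage cultures at 24 h (18.4% of all genes higher) and 26 for the difference between cell types (4.46% higher), where the numbers did not pair the libraries (lowest correlations 0.066 and 0.007), and 21 in mono-cultured tumour cells and 18 between their cultures at 24 h, where they did. It changed no other count by more than 1.5 times. RLE size factors gave 17 between macrophage cultures at 24 h. DESeq2 gave 25 there, 12 in mono-cultured tumour cells, 1 between their cultures at 24 h and 30 for the difference between cell types.

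Replicates 2 and 3 alone gave 2 and 11 in co- and mono-cultured macrophages at 6 h, 37 in mono-cultured ones at 24 h and 18 between their cultures at 24 h. In tumour cells they gave 1 and 1 in co- and mono-culture at 6 h, 19 and 17 at 24 h, 1, 5 and 39 between the cultures at 0 h, 6 h and 24 h and 18 for the difference of changes between the cultures. Between cell types they gave 31 at 0 h and 37 for the difference of 24 h changes. Ccnb1 changed sign between cell types at 0 h, to 0.66 with replicates 2 and 3 alone, against -0.01 in all libraries. The fixed marker list put macrophage RNA in tumour cells at 6.16%, 5.09% and 6.10% in co-culture and 1.47%, 3.85% and 7.22% in mono-culture at 0 h, 6 h and 24 h, and 20 markers put tumour cell RNA in co-cultured macrophages at 24 h at 5.07%. The cause was not tested in any of these. Cdc25c had the fewest counts of the 40, 39 to 237 a library, and so the largest counting error.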
